A study of Mus musculus with 9 samples.

Results

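Vascular receptors and markers of blood and lymphatic endothelium were followed in MSC2, a clonal line of mesenchymal stromal cells from mouse bone marrow, during osteoblastic induction. The 10 genes are Kdr, Flt1, Flt4, Erg, Emcn, Pecam1, Cdh5, Tek, Tie1 and Vwf, out of 22180 genes compared. They were selected because Kdr and Erg were higher in induced cells of these same arrays, so every contrast with undifferentiated cells is given here as a description of the members, with no p-value, and counts of members called in it are printed beside those of all genes with nothing read from them. The contrast of 28 with 14 days was not the one used for selection, and the members were tested in it. All 10 genes are read by 1 probe set each on the array.

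The 9 expression arrays of biotin-labelled total RNA hold 3 undifferentiated cultures, 3 after 14 days and 3 after 28 days of induction, all of the same line from 6-week-old C57BL/6 mice. Before induction the cells grew in alpha-MEM lacking ascorbic acid. Induction began at confluence, in DMEM to which 10 mM beta-glycerophosphate, 0.2 mM ascorbate phosphate, 1 mM pyruvate and 0.1 µM dexamethasone were added, and serum stood at 10% in either medium. MSC2 is 1 clone, so the arrays describe that clone. Beside induction itself, the induced groups had another medium, were confluent and were older. No uninduced culture of the same age was among the samples. Nothing in the labels ties the 3 arrays of a group to separate thaws or animals, so the spread between them may be technical.

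Values are RMA log2 signals centred on the median of each gene's probe set over the 9 arrays, so 0 is that gene's own midpoint and no absolute level is kept. The centred values cannot show whether a gene is expressed at all, and levels of different genes cannot be ranked. The first principal component held 87.1% of the variance over the 9 arrays. The replicate SD had a median of 0.073 log2 units over genes. Fkbp5, a glucocorticoid target, rose by 1.42 log2 units at 14 days and 1.27 at 28 days. Mki67, a marker of cycling cells, fell by 1.97 and 2.92. In whole cultures, fewer cells of a type and less RNA per cell cannot be told apart.

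Endothelial cells sense vascular endothelial growth factors (VEGFs) through the receptor tyrosine kinases Kdr, Flt1 and Flt4, and sense angiopoietins through Tek with its partner Tie1. Erg, an ETS-family transcription factor, helps to maintain endothelial identity, and adhesion proteins such as Cdh5 and Pecam1 hold neighbouring endothelial cells together. In bone, vessels that carry endomucin, the product of Emcn, lie close to sites of bone formation. Transcripts of some of these genes, Kdr and Flt1 among them, are also known from cells outside the endothelium.

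The promoters of the members are shown first, with the core letters GGAA that ETS factors such as Erg bind marked in them. RefSeq promoter windows on GRCm38.p6 were at hand for Kdr, Flt1, Flt4, Erg, Emcn, Tek and Tie1. Pecam1, Cdh5 and Vwf were not matched. Each window holds the 250 bases before an annotated start, written 5′ to 3′ on the strand of the gene. Capitals mark the letters GGAA and, for a match on the opposite strand, TTCC. Kdr (chr5:75978456-75978705, minus strand), Flt1 (chr5:147726012-147726261, minus), Flt4 (chr11:49609429-49609678, plus), Emcn (chr3:137340828-137341077, plus), the first of 3 starts of Erg (chr16:95586594-95586843, minus) and Tie1 (chr4:118489850-118490099, minus) are printed.
Kdr: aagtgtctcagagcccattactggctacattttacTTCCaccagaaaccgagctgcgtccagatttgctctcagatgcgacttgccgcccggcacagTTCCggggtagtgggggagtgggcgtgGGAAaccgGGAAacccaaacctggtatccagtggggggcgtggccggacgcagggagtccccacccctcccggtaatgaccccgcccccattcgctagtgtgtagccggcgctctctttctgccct
Flt1: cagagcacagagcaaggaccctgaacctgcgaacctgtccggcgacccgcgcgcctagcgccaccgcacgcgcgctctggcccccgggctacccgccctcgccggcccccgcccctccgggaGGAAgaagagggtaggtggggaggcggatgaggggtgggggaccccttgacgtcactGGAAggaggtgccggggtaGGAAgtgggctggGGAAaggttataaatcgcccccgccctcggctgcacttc
Flt4: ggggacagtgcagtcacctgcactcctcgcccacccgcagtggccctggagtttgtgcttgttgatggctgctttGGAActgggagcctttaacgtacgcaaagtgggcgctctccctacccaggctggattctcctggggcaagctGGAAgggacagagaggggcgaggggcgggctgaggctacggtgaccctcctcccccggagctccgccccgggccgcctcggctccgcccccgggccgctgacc
Erg: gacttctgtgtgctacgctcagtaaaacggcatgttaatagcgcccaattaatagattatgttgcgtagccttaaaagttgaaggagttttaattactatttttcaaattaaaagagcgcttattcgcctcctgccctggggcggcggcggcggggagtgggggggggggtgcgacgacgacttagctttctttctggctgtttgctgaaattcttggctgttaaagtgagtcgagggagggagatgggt
Emcn: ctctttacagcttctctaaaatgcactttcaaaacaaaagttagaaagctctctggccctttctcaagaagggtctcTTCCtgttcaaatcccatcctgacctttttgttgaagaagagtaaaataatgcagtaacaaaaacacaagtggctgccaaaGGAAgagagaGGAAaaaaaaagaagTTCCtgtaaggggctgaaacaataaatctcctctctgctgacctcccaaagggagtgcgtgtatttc
Tie1: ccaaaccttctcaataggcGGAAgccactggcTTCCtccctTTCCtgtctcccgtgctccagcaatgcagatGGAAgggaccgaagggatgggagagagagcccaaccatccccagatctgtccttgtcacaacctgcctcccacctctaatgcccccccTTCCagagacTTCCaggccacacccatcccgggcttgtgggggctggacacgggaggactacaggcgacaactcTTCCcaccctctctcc

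The windows of Kdr, Flt1 and Emcn hold 4 matches to GGAA each, that of Flt4 holds 2 and that of Tie1 holds 7. The printed Erg window holds 0, while the windows at its other starts, which are not printed, hold 4 and 2. Tek, with a window at chr4:94739039-94739288 on the plus strand, has 2. Over the 32851 windows of the table, 93.4% hold at least 1 match and the median is 3, so the core is common in promoters at large. The longer form CCGGAA, whose last letters are a GGAA match, was found in 1 member window, that of Kdr, and in 12% of all windows. AGATAA, a motif of GATA factors, was found at the third start of Erg and in 9.99% of all windows. AGAACA, part of the element bound by the glucocorticoid receptor, was found in the Tek window and in 16.1% of all windows. Both strands were searched for each motif.

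The VEGF receptors were all higher in induced cultures. Kdr differed most in the values as deposited, but Flt4 differed more at 14 days when quantile normalization was applied once more (1.37, against 1.00 for Kdr). Kdr encodes the main signalling receptor for VEGF-A. Its centred log2 values were -1.94, -1.78 and -1.88 in undifferentiated cells, 0.026, -0.045 and 0.15 at 14 days, and 0, 0.063 and 0.053 at 28 days. The 3 undifferentiated arrays were low and the 6 induced arrays lay together, with no overlap. The difference was 1.91 log2 units at 14 days (SE 0.060, 95% interval 1.78 to 2.05), a 3.76-fold higher signal, and 1.91 at 28 days (1.77 to 2.04), 3.75-fold. Of 22180 genes, 152 had a larger rise at 14 days and 201 at 28 days. After that second normalization of the centred values, the Kdr differences were 1.00 and 0.95. For a gene whose undifferentiated arrays stand apart, the median used for centring falls on an induced array. Quantile normalization of values centred in this way can itself resize differences. It therefore cannot decide whether Kdr or Flt4 differed more.

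Flt1 encodes a receptor that binds VEGF-A tightly and signals weakly. Its values were -1.10, -1.11 and -0.81 in undifferentiated cells, 0.043, 0.048 and -0.012 at 14 days, and 0, 0.024 and 0.064 at 28 days. Again the undifferentiated arrays lay below every induced array. The difference was 1.03 at 14 days (SE 0.072, interval 0.87 to 1.19, 2.05-fold) and 1.04 at 28 days (0.87 to 1.20, 2.05-fold). It was 0.55 and 0.54 after the repeated quantile normalization.

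Flt4 encodes the receptor for VEGF-C and VEGF-D that marks lymphatic endothelium. Its values were -0.82, -0.89 and -0.89 in undifferentiated cells, 0.29, 0.31 and 0.47 at 14 days, and -0.039, 0 and 0.075 at 28 days. The 3 groups did not overlap, and the 14-day arrays were the highest. The difference was 1.22 at 14 days (SE 0.056, interval 1.10 to 1.35, 2.34-fold) and 0.88 at 28 days (0.75 to 1.00, 1.84-fold). The second quantile step gave 1.37 at 14 days and 0.46 at 28 days.

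Erg, the ETS factor of the set, read -1.17, -1.001 and -1.24 in undifferentiated cells, -0.072, 0.19 and 0 at 14 days, and 0.22, 0.17 and 0.20 at 28 days. The undifferentiated arrays stood apart, while the 14-day and 28-day arrays overlapped. The difference was 1.18 at 14 days (SE 0.076, interval 1.01 to 1.35, 2.26-fold) and 1.33 at 28 days (1.16 to 1.503, 2.52-fold). The second quantile step gave 0.68 and 0.83.

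Emcn encodes endomucin, a sialomucin of capillary and venous endothelium. It read -0.63, -0.56 and -0.67 in undifferentiated cells, 0.28, 0.50 and 0.15 at 14 days, and 0, -0.016 and 0.18 at 28 days. All induced arrays were above all undifferentiated ones, and the 14-day arrays were spread most widely. The difference was 0.93 at 14 days (SE 0.086, interval 0.74 to 1.12, 1.90-fold) and 0.68 at 28 days (0.48 to 0.87, 1.60-fold). With quantile normalization repeated, the difference was 1.07 at 14 days and 0.40 at 28 days, and the gene was no longer called at 28 days.

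**Figure D1:**
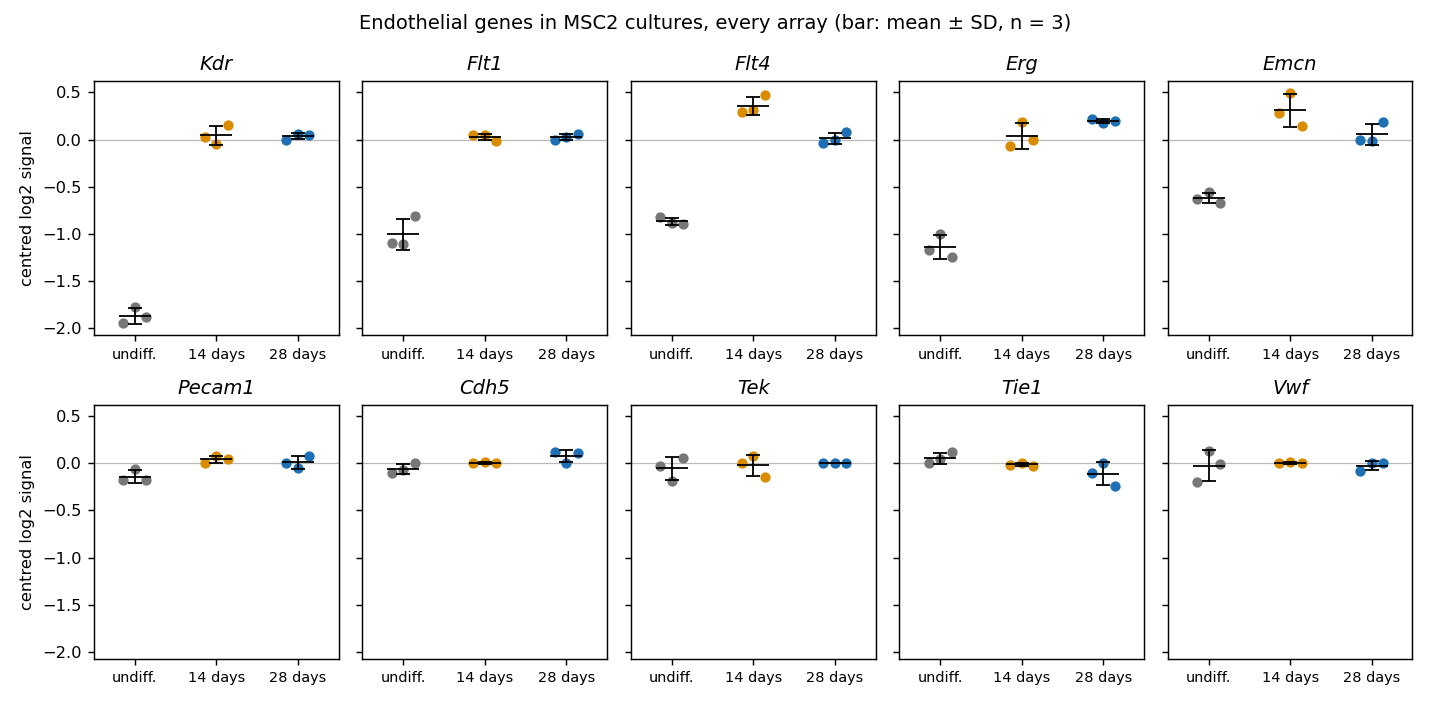
Centred log2 signal (y axis) of each of the 10 genes in the 9 arrays, by group on the x axis, with a point per array and bars for the group mean ± SD (n = 3). Kdr, Flt1, Flt4, Erg and Emcn lie at -0.56 or below in every undifferentiated array and near or above 0 in the induced arrays, while Tek, Tie1 and Vwf overlap among the groups.

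The junction and adhesion genes moved little. Pecam1, an adhesion molecule of endothelium, platelets and leukocytes, read -0.18, -0.066 and -0.18 in undifferentiated cells, 0, 0.073 and 0.048 at 14 days, and 0, -0.050 and 0.081 at 28 days. Its groups did not overlap between undifferentiated and induced arrays, but the gap was narrow. The difference was 0.18 at 14 days (SE 0.050, interval 0.070 to 0.30) and 0.15 at 28 days (0.040 to 0.27). Cdh5, the cadherin of endothelial junctions, read -0.11, -0.074 and 0 in undifferentiated cells, 0, 0.018 and 0 at 14 days, and 0.12, 0 and 0.11 at 28 days. At least 1 array of each group sat at exactly 0. The difference was 0.066 at 14 days (SE 0.047, interval -0.038 to 0.17) and 0.14 at 28 days (0.031 to 0.24), with overlapping arrays in both.

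The Tie receptors and von Willebrand factor did not separate the groups. Tek, the angiopoietin receptor, read -0.030, -0.18 and 0.055 in undifferentiated cells, 0, 0.072 and -0.14 at 14 days, and 0 in all 3 arrays at 28 days, so its spread at 28 days is understated. Its difference was 0.030 at 14 days (interval -0.12 to 0.18) and 0.053 at 28 days (-0.10 to 0.21). Tie1, which pairs with Tek, read 0, 0.042 and 0.11 in undifferentiated cells, -0.015, 0.0050 and -0.029 at 14 days, and -0.098, 0.0035 and -0.24 at 28 days. It was the member with the lowest difference, -0.066 at 14 days and -0.16 at 28 days (interval -0.30 to -0.028), and its arrays overlapped between groups. Vwf, a clotting protein stored in endothelial cells and platelets, read -0.20, 0.13 and -0.0036 in undifferentiated cells, 0, 0.016 and 0 at 14 days, and -0.081, 0 and 0 at 28 days. Its differences were 0.030 and -0.0019.

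By size of difference in the deposited values the members fell in the order Kdr, Flt4, Erg, Flt1 and Emcn at 14 days, and the 95% intervals of each neighbouring pair below Kdr overlapped. At 28 days the order was Kdr, Erg, Flt1, Flt4 and Emcn, and the same held. The interval of Kdr overlapped with no other member's at either time in these values. The set was chosen for the rise of Kdr and Erg, so this is a description only. After the second quantile normalization the order at 14 days was Flt4 (1.37), Emcn (1.07), Kdr (1.00), Erg (0.68) and Flt1 (0.55), and at 28 days it was Kdr (0.95), Erg (0.83), Flt1 (0.54), Flt4 (0.46) and Emcn (0.40). Which order holds cannot be decided from that step, since it was run on centred values. A gene counts as called at a Benjamini-Hochberg adjusted p under 0.05 in limma over all 22180 genes. At 14 days 6 members were called higher, where 18.2% of all genes were, and 0 were called lower, where 17.5% of all genes were. The median over the 10 members was 0.56 log2 units, and that over all genes 0.0048. At 28 days 7 were called higher, against 20.4% of all genes, and 0 lower, against 19.5%, with a median of 0.41 beside 0.017 over all genes. Arrays of the compared groups did not overlap for 6 members at either time, against 44.8% of all genes at 14 days and 46.6% at 28 days. The members were selected on these contrasts, so the counts describe them only. The calls of Pecam1 and, at 28 days, Cdh5 were lost when single arrays were left out: Pecam1 was called in 6 of 9 such fits at 14 days and 4 of 9 at 28 days, and Cdh5 in 2 of 9. With quantile normalization repeated, 5 members were called at 14 days, Pecam1 being lost, and 4 at 28 days, Emcn, Pecam1 and Cdh5 being lost.

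**Figure D2:**
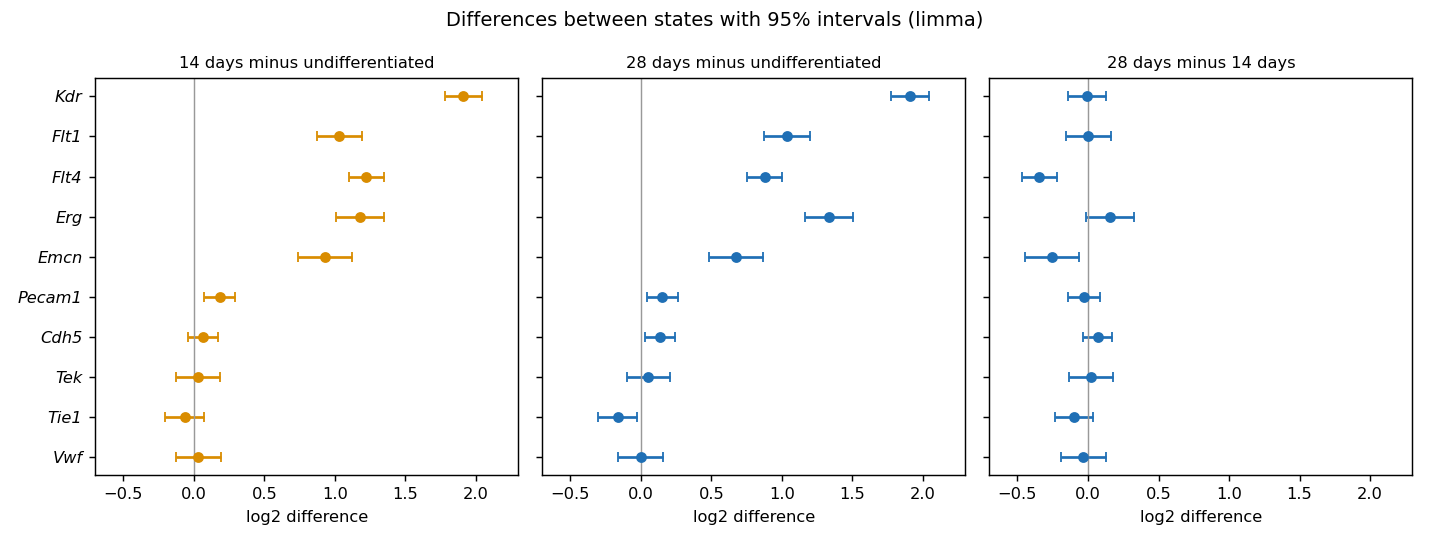
Log2 difference (x axis) of each member for the 3 comparisons, with points for the estimates and bars for their 95% intervals. The intervals of Kdr, Flt1, Flt4, Erg and Emcn against undifferentiated cells lie wholly above 0. So, closer to it, do those of Pecam1 at both times and Cdh5 at 28 days, while that of Tie1 at 28 days lies wholly below 0. Between 28 and 14 days those of Flt4 and Emcn lie wholly below 0. The intervals are not adjusted for the number of genes. Neither Tie1 at 28 days nor Emcn between 28 and 14 days was called.

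Between 14 and 28 days Flt4 fell and no other member was called. Flt4 fell by 0.35 log2 units (28 minus 14 days, interval -0.47 to -0.22), to 0.787 of the 14-day signal, with all 3 arrays below all 14-day arrays and a limma adjusted p of 0.00423. The call was made in all 9 fits that left out an array, with adjusted p from 0.00742 to 0.0191. Among the alternatives run it was lost where the test asked for a change beyond 1.5-fold, with an adjusted p of 1. After the repeated quantile normalization the difference was -0.92. Emcn differed in the same direction by -0.25 (-0.45 to -0.061), with overlapping arrays and an adjusted p of 0.123. It was -0.68 after the repeated quantile normalization (adjusted p 0.0776) and -0.16 without replicate 2 of the 14-day group (adjusted p 0.316). Erg differed by 0.16 (-0.013 to 0.33, adjusted p 0.288), a rise that the interval leaves at up to 1.25-fold. For Kdr the difference was -0.0061 (-0.14 to 0.13, adjusted p 0.971) and for Flt1 0.0027 (-0.16 to 0.16, adjusted p 0.989), so any later change of either was bounded by those limits at this number of arrays. Pecam1, Cdh5, Tek, Tie1 and Vwf had limma adjusted p of 0.802, 0.464, 0.898, 0.42 and 0.853. Thus 0 of 10 members were called higher, where 2.72% of all genes were, and 1 was called lower, where 4.67% were. The arrays of 1 member did not overlap, against 24.4% of all genes. The members' median was -0.018 and that of all genes 0.0018. Whether Flt4 differs in its course from Kdr or Flt1 was not tested.

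The wider gene lists below were drawn up with earlier results of these data known. Listed genes were tested in limma over all genes, and a list's counts and median are descriptions. Over all genes, 18.2% were called higher and 17.5% lower at 14 days, and 20.4% and 19.5% at 28 days. Between 28 and 14 days the shares were 2.72% and 4.67%. The counts of every list below stand beside these shares, and no excess over them was tested. The ligands and co-receptors of the VEGF receptors did not move one way. Of 7 measured, 2 rose and 3 fell at 14 days, and 3 rose and 3 fell at 28 days, with medians of 0.055 and 0.082. Vegfb, a ligand of Flt1, rose by 0.74 (adjusted p 7.8e-07) and 0.56 (adjusted p 5.2e-06). Its 28-day call was lost after the repeated quantile normalization, with an adjusted p of 0.0998. Nrp2, a co-receptor that works with Flt4, rose by 0.41 and 0.56. Nrp1, a co-receptor that works with Kdr, fell by 0.54 and 0.83, and again between 14 and 28 days by 0.29 (limma adjusted p 0.0054). Vegfd, a ligand of Flt4, fell by 0.53 and 0.44, and Pgf, which binds Flt1, fell by 0.33 and 0.55. Vegfa itself, named here after its values were seen, differed by 0.12 at 14 days (limma adjusted p 0.119) and rose by 0.27 at 28 days (adjusted p 0.00268). After the repeated quantile normalization 1 list gene rather than 3 was called higher at 28 days, and Vegfa, with an adjusted p of 0.105, was not called. The calls of Pgf at 14 days (adjusted p 0.304) and Vegfd at 28 days (adjusted p 0.335) were lost there too.

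The angiopoietin and Tie list, which also holds the lymphatic marker Pdpn and the angiopoietin-like gene Angptl1, was likewise divided. Of its 7 genes, 3 rose and 3 fell at 14 days, and 3 rose and 2 fell at 28 days. These counts include Pdpn among the genes that rose at both times. They also include Angptl1, named after its values were seen, among those that fell at 14 days. Ptprb, the endothelial phosphatase that restrains Tek, fell by 1.16 at 14 days and 1.89 at 28 days, and between the times by 0.74 (limma adjusted p 8.0e-05). Svep1, an extracellular protein linked to Tie1, fell by 0.74 and 0.78. Angpt2, a context-dependent ligand of Tek, rose by 0.52 and 0.56. Pdpn, which marks lymphatic endothelium and is also made by cells of the osteoblast lineage, rose by 0.96 and 1.04.

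Kdr, Flt1 and Flt4 belong to the type III and type V receptor tyrosine kinases, whose other members here are Kit, Csf1r, Flt3, Pdgfra and Pdgfrb. Of all 8, which include the 3 VEGF receptors, 6 were called higher at 14 days and 5 at 28 days, and 0 lower at either time. Csf1r, the receptor for macrophage colony-stimulating factor, rose by 1.81 and 2.10, and further between 14 and 28 days by 0.29 (limma adjusted p 0.0109). Its 14-day difference was close in size to that of Kdr. Pdgfra, a platelet-derived growth factor receptor of stromal cells, rose by 1.27 and 1.42. Pdgfrb rose by 0.24 at 14 days (limma adjusted p 0.0117, but 0.0523 without replicate 2 of that group) and differed by 0.12 at 28 days. Kit and Flt3, receptors of blood progenitors named after their values were seen, differed by 0.020 and 0.098 at 14 days and were not called.

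Genes of the ETS family were called in both directions. Of 25 measured genes, Erg included, 5 were called higher and 8 lower at 14 days, and 4 higher and 7 lower at 28 days, with medians of -0.0043 and -0.0029. Erg, which was chosen for its rise, had the largest rise of the family at both times. Elf1 rose by 0.82 and 0.85. Fli1, the closest relative of Erg and itself an endothelial factor, rose by 0.47 and 0.43. Ets1, another endothelial ETS factor, fell by 0.50 at 14 days and 0.55 at 28 days, and Etv4 fell by 0.87 and 0.66. Erf, a repressor, fell by 0.69 at 28 days. After the repeated quantile normalization 5 genes rather than 8 were lower at 14 days, and the 28-day call of Etv4 was lost, with an adjusted p of 0.0877.

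**Figure D3:**
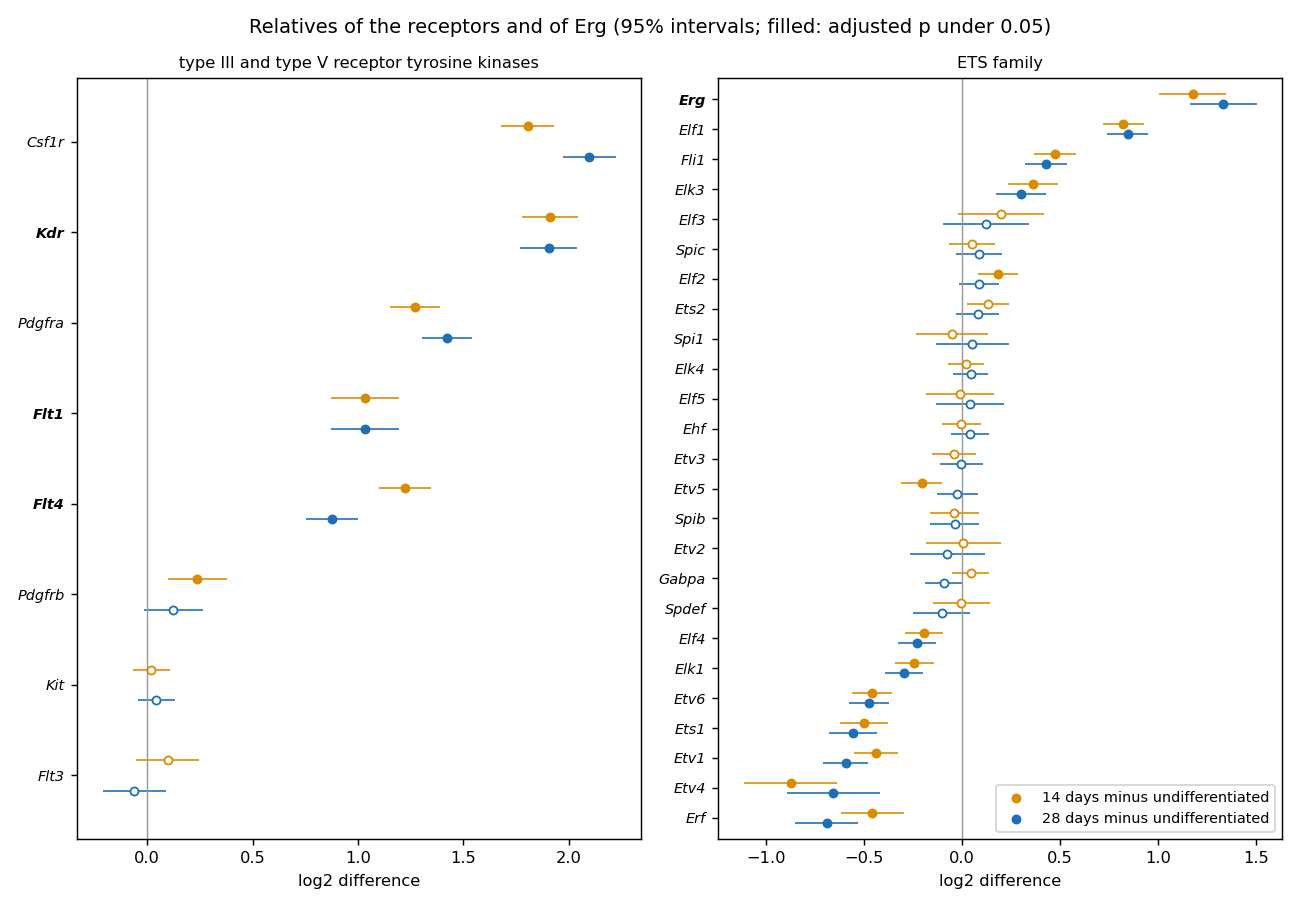
Log2 difference from undifferentiated cells (x axis) of the receptor tyrosine kinases and of the ETS family at 14 and 28 days, with a point per gene and time, filled where called at an adjusted p under 0.05, and bars for 95% intervals. Pdgfra lies among the VEGF receptors, and Csf1r lies close to Kdr at 14 days and above it at 28 days. Erg lies above the other ETS genes, which spread to both sides of 0.

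Transcription factors that act in endothelium, Erg left out, moved both ways. Of 22 measured, 5 rose and 6 fell at 14 days, and 6 rose and 7 fell at 28 days. The largest changes were falls. Hey2 and Hey1, targets of Notch signalling used in arterial endothelium, fell by 1.56 and 1.32 at 14 days and by 2.09 and 1.77 at 28 days, and Hey2 fell further between the times by 0.53 (limma adjusted p 0.000803). Foxf1 fell by 1.06 and 0.99. Gata2, a factor of blood and endothelial cells, fell by 0.99 and 1.16. The highest differences of the list were those of Mef2c at 14 days (0.50) and Epas1 at 28 days (0.71). Both are named after their values were seen. With quantile normalization repeated, 3 rather than 5 were called higher at 14 days.

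Of 39 other endothelial markers measured, 10 rose and 2 fell at 14 days, and 12 rose and 3 fell at 28 days, so most were not called. Their median difference was 0.028 and 0.050. Podxl, a sialomucin of endothelium and podocytes, rose by 1.27 and 1.04. Selp, the P-selectin of endothelium and platelets, rose by 1.14 and 1.48. Procr, the protein C receptor, rose by 1.08 and 1.42, and Lyve1, a hyaluronan receptor of lymphatic endothelium, by 0.95 and 0.99. Ecscr had the lowest difference of the list, -0.61 at 14 days and -0.70 at 28 days, and is named after its values were seen. Cldn5 and Esam, genes of endothelial tight junctions, and Robo4, a guidance receptor of endothelium, differed by -0.042, 0.067 and 0.055 at 14 days and were not called, and they are named after their values were seen. Between 14 and 28 days 3 rose and 3 fell. Jam2 fell by 0.41 (limma adjusted p 0.00075), as did Cd93, a C-type lectin-like receptor, by 0.34 (adjusted p 0.00549). Against undifferentiated cells Cd93 was higher, by 0.86 at 14 days and 0.52 at 28 days. Jam2 differed from them by 0.16 and -0.25. After the repeated quantile normalization 6 rather than 10 markers were higher at 14 days and 7 rather than 12 at 28 days.

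**Figure D4:**
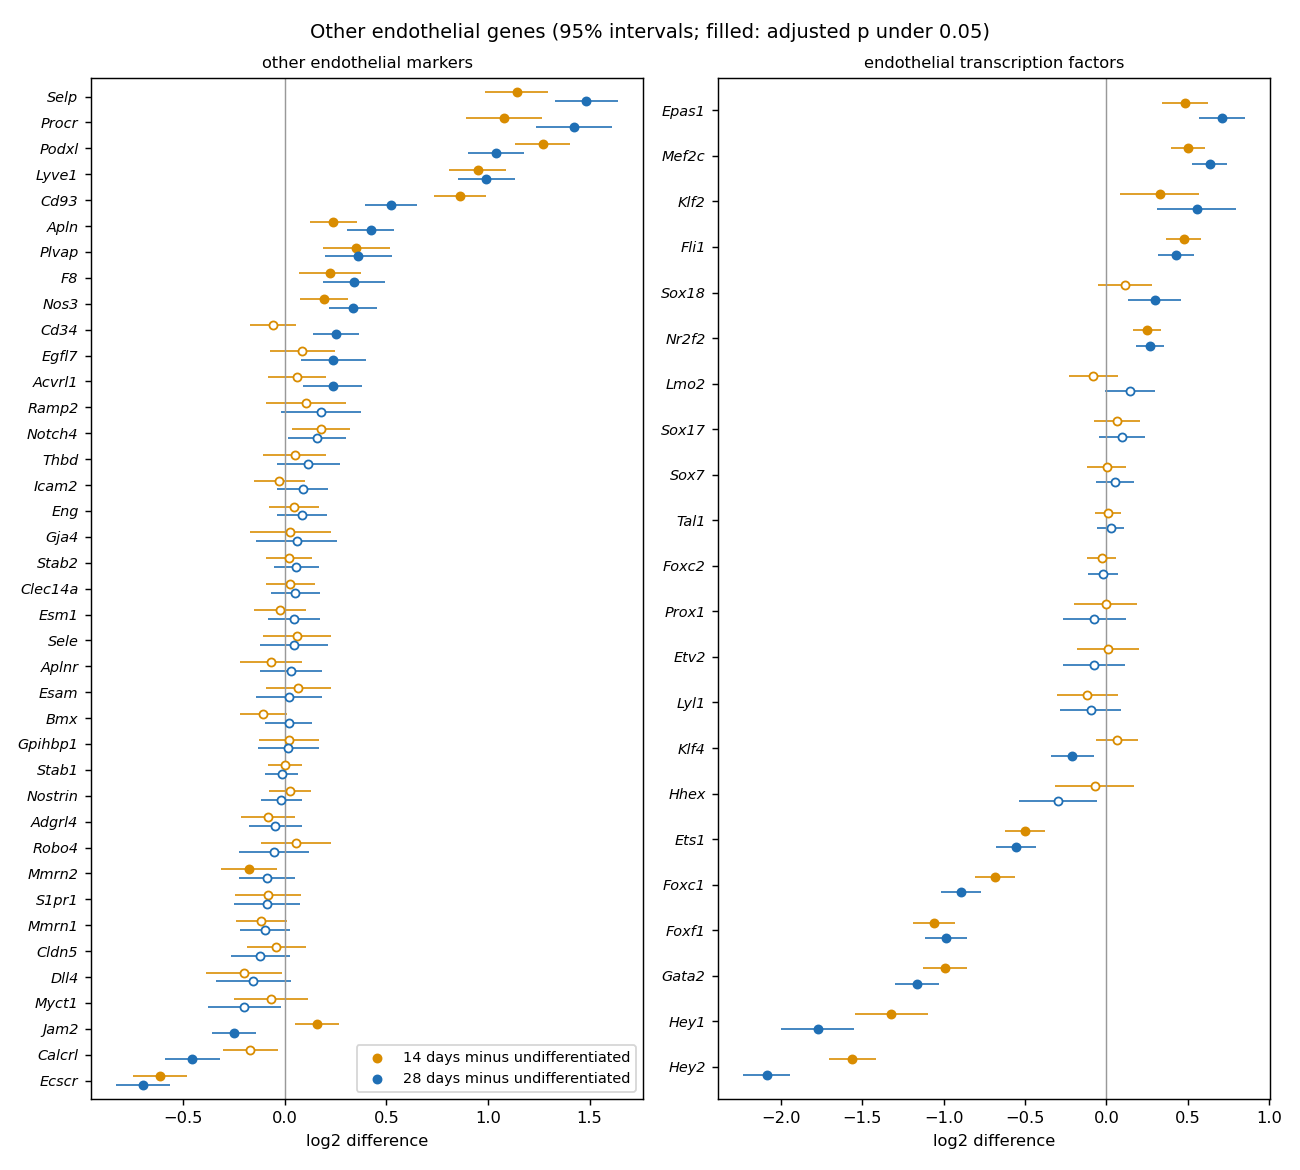
Log2 difference from undifferentiated cells (x axis) of each other endothelial marker (left) and endothelial transcription factor (right, y axis by gene) at 14 and 28 days, with bars for 95% intervals and filled points for genes called at an adjusted p under 0.05. Selp, Procr, Podxl and Lyve1 lie between 0.95 and 1.48, most other markers lie near 0, and Hey1 and Hey2 lie lowest among the factors.

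Markers of other cells that share these genes were read beside them. The mean centred signal of the 10 members ran from -0.62 to -0.55 over undifferentiated arrays, 0.056 to 0.12 at 14 days and 0.012 to 0.052 at 28 days. Of 12 mural cell markers, 6 rose and 2 fell at 14 days, and 4 rose and 2 fell at 28 days. Their mean ran from -0.21 to -0.17, from 0.051 to 0.061 and from 0.0083 to 0.026, so it moved the same way as the members. Anpep rose by 2.33 and 2.84, and Mcam, which pericytes share with endothelium, fell by 2.31 and 2.62. Of 7 platelet and megakaryocyte markers 0 rose, and 2 fell at 14 days and 3 at 28 days. Their mean moved the other way, from 0.13 to 0.24 in undifferentiated arrays, -0.051 to -0.0034 at 14 days and -0.084 to -0.046 at 28 days. Itgb3, an integrin of platelets and osteoclasts, fell by 0.77 and 1.16.

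Of 15 blood cell markers, Csf1r and Cd68 rose and 0 fell at both times. Cd68, of macrophages, rose by 0.30 and 0.75, and its 14-day call was lost after the repeated quantile normalization, with a limma adjusted p of 0.501. Ptprc, carried by nearly all white blood cells and named after its values were seen, differed by 0.042 and -0.0057 and was not called. The blood marker mean ran from -0.16 to -0.13 in undifferentiated arrays, from -0.041 to 0.026 at 14 days and from 0.042 to 0.080 at 28 days. Of 12 stromal markers, 5 rose and 3 fell at both times. Nt5e rose by 2.21 and 2.70, and Cd44 fell by 2.29 at 14 days and fell by 2.59 at 28 days. The stromal marker mean ran from -0.22 to -0.16 in undifferentiated arrays and from -0.0082 to 0.070 in induced arrays. Since centred values give no level, no marker could be called absent, and the part of these cell types in the members' values was not tested.

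The genes whose pattern lay nearest to Kdr and to Erg were found by the root mean square difference over the 9 arrays among 18694 named genes. For Kdr they were Enpp5 (0.052 log2 units), Nbl1 (0.066), Ldhb (0.069), Gdpd1 (0.076) and Gabarapl1 (0.082). Ldhb, a lactate dehydrogenase subunit, had group means of -1.80, 0.022 and 0.037, beside -1.87, 0.045 and 0.039 for Kdr. For Erg they were Mettl27 (0.077), Ralgds (0.080), Mexis (0.086), Nlrc3 (0.089) and Cyp4f17 (0.091). Cyp4f17 had group means of -1.16, 0.043 and 0.20, beside -1.14, 0.039 and 0.20 for Erg. None of the 10 nearest genes was on an endothelial list. The longest such list holds only 39 measured genes beside the 18694 ranked, so nothing is read from that. With centred values and 3 groups the measure rests mainly on the step from undifferentiated to induced cells.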

How the data were processed

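Total RNA of 9 cultures of 1 clonal line was measured on expression arrays, 3 per group. RMA is the method behind the values, per the submitters' processing notes. The deposited values are taken as log2 signals because RMA works in log2. For the software behind it and the centring step, nothing is given in the sources used here. All 33794 probe sets have their median at exactly 0, so each was centred on that median. Centring keeps differences between groups and removes levels. That a higher value means more RNA is an assumption, checked on Fkbp5. Values run from -6.33 to 3.42, and 15.2% to 28.1% of an array's values are exactly 0. Some 873 genes hold 1 value throughout a group, which understates the spread. Tek is the member among them. The number of arrays limits the precision.

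Probe sets were named by the annotation supplied with the values. 23521 have 1 gene and were used, and 1814 have several and were not. Means over probe sets gave 22180 genes, 21098 of them with 1 probe set. 23328 of the named probe sets, and all 10 members, matched RefSeq by Entrez number. 0 sample columns were left unused. A mean per group was fitted in limma 3.58.1 (R 4.3.3), with 6 residual and 3.81 prior degrees of freedom. The Benjamini-Hochberg adjustment ran over all genes. Standard errors and 95% intervals are those of the fit.

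The members, the gene lists and the naming rule were chosen with earlier results of these data known. The rule names all members, up to 4 called genes with the largest difference per list and comparison, the 5 genes nearest to Kdr and to Erg (gene-model, clone and small-RNA names left out), Mki67 and Fkbp5. Not every gene it allows is printed. Alternatives were quantile normalization again, median centring, the most variable probe set, no genes with tied groups, robust eBayes, a test against a 1.5-fold change, adjusted p under 0.01, only the groups compared, the replicate block, and leaving out each array. Median centring moved neither the median difference over all genes nor the counts of genes and members called. It changed nothing and so is no separate check of the calls. The choice of the most variable probe set could not change a member's difference, as each member has 1 probe set. The numbers 1 to 3 do not pair the samples by the labels, and deviations of same-numbered arrays correlated by -0.14 to 0.068.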

Additional observations from a re-analysis of the deposited data

How the results depend on the processing

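With quantile normalization of the centred values, genes called went from 7920 to 5200 at 14 days, from 8845 to 5662 at 28 days and from 1639 to 2048 between 28 and 14 days, and members called at 28 days from 7 to 4. Of 33 named list genes in each contrast with undifferentiated cells, 24 at 14 days and 15 at 28 days moved by over 1.5 times and 0 changed sign, and 2 in each lost the call. The test against a 1.5-fold change called 1582 genes at 14 days, 2010 at 28 days and 28 between 28 and 14 days, with 4 members at 28 days and 0 between the times. At an adjusted p under 0.01, 813 genes rather than 1639 were called between 28 and 14 days. Leaving out single arrays gave 7115 to 7955 genes and 5 to 6 members at 14 days, 8177 to 8689 genes and 5 to 8 members at 28 days, and 991 to 1573 genes and 1 member between the times. The lowest, 991 and 1017, came without replicates 1 and 2 of the 14-day group. Of 20 named list genes called between 28 and 14 days, 10 lost the call in at least 1 of these fits, Angpt1, Hey1, Procr and Selp among them. The replicate block gave 7846, 8726 and 1390 genes and 6, 5 and 1 members in the 3 comparisons. Pecam1 and Cdh5 were not called at 28 days under the block. Tie1 was called lower at 28 days without replicate 2 of that group. Among the members and the list genes named by the rule, no called difference changed direction in the alternatives run. Other genes printed here were not followed through all alternatives. Where a value moved, the cause was not tested.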

Other observations

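Exact zeros were unevenly spread over the 10 genes, as they are over all genes, since centring on the median of 9 arrays puts at least 1 array at 0 for a gene with 1 probe set. Kdr, Flt1, Flt4, Erg, Emcn and Tie1 have 1 array at exactly 0 and Pecam1 has 2. Cdh5, Tek and Vwf have 4 each, a number reached or passed by 10.8% of all genes. For those genes the spread within a group rests on few distinct values.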
